A study of Mus musculus with 19 samples.

Results

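The glucocorticoid receptor gene Nr3c1, the steroid-inactivating enzyme gene Hsd11b2 and 5 genes that the receptor is known to control (Fkbp5, Tsc22d3, Sgk1, Klf9 and Zbtb16) were followed in small-intestinal crypts of fed and fasted mice. The 7 genes were taken by symbol from the 55487 genes of the deposited tables, and all 7 were among the 17875 genes with enough counts to be tested. RNA was sequenced from crypts of the small intestine, isolated per the paper from its proximal and middle parts, not its distal part. The C57BL/6 mice carried (NT+/+) or lacked (NT-/-) the gene of neurotensin, a gut hormone that is released after fat intake. The paper describes its fed and fasted mice of both genotypes as carrying an Lgr5-EGFP reporter. The study asked how the loss of neurotensin alters the crypt's response to food deprivation. Food was freely available (ad libitum) to 5 NT+/+ and 4 NT-/- mice, and a further 5 mice of each genotype had only water for 48 h. The adult mice comprised 12 females, 6 males and 1 mouse with no sex given, and controls were littermates matched for sex and age. The NT-/- mice lacked the gene in every tissue, so the deletion was not limited to the crypt.

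Glucocorticoids are steroid hormones of the adrenal cortex, corticosterone in the mouse, and their release rises when food is withdrawn. The receptor waits in the cytoplasm in a complex with the chaperone HSP90 and its partners. Once it binds hormone, it enters the nucleus and switches on genes whose DNA carries glucocorticoid response elements. Some of these genes feed back on the pathway, as Fkbp5 does by lowering the receptor's affinity for hormone. In the intestine, glucocorticoids are known to hasten the maturation of enterocytes and to raise sodium uptake. Hormone levels were not analysed here.

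Total counts per mouse ran from 9059418 to 35068669, with a median of 18541770, and values are given as CPM, counts per 1000000 counts of the library, with library sizes adjusted by the trimmed mean of M-values (TMM). Nts, the deleted gene, lay between 0.144 and 0.793 CPM in the 9 NT-/- mice and between 4.98 and 8.59 CPM in the 10 NT+/+ mice. The fasted NT+/+ mouse of replicate 5 carries the genotype label NT -/- but was grouped by its title, and its Nts level was 5.43 CPM. Markers of epithelium were abundant in every mouse, with a summed level between 5299 and 7335 CPM over 5 genes. The summed level of 7 stromal markers was at most 12.5 CPM and that of 3 endothelial markers at most 2.45 CPM.

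Fasting also moved markers of other cells of the preparation. All 5 villus enterocyte markers (Alpi, Apoa4, Apoc3, Fabp1 and Ada) rose over both genotypes together, and their summed level ran from 571 to 1946 CPM in fed and from 1718 to 5157 CPM in fasted mice. Of 4 stem cell markers, Olfm4 and Smoc2 fell, while Lgr5 (log2 fold change 0.14) and Ascl2 (0.37) did not pass the test. Of 10 leukocyte markers, 1 rose and 2 fell, and the summed levels overlapped, with 99.3 to 195 CPM in fed and 85.4 to 256 CPM in fasted mice. None of the 4 Paneth cell markers passed the test. In bulk RNA, fewer cells of a type and less RNA per cell cannot be told apart, and the part of these shifts in the results that follow was not tested.

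The stretch of DNA around a gene's start is where many regulators act, so the start windows that RefSeq gives for GRCm38.p6 (250 bases before to 50 after the start) were searched on both strands for the receptor's palindromic element, which is the arm AGAACA, 3 free bases and the mirrored arm TGTTCT. Windows were found for Sgk1 (6), Tsc22d3 (3), Fkbp5 (1) and Klf9 (1). The reference used held none for Hsd11b2 and Zbtb16, and those of Nr3c1 are not reported here. The full element was present in 3 of 32851 windows (0.00913%), and 1 of these 3 belonged to Sgk1. In that window it read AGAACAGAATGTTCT and began 189 bases before the start. A single arm, AGAACA, which the full element contains, stood on either strand in 19% of all windows, in 3 of 6 windows of Sgk1 and in 1 of 3 of Tsc22d3, but in neither the Fkbp5 nor the Klf9 window. A match is only a match of letters, and its absence says only that these letters are not in the window. The counts were per gene and do not separate the starts. The 3 windows shown are the Sgk1 window with the full element, a Tsc22d3 window with a single arm and the only Fkbp5 window, each 5′ to 3′ on the gene's strand. Capitals mark the full element in the Sgk1 window and the single arm in the Tsc22d3 window, and a further single arm near the first base of the Sgk1 window is left in lower case.
Sgk1, chr10:21993640-21993939, plus strand: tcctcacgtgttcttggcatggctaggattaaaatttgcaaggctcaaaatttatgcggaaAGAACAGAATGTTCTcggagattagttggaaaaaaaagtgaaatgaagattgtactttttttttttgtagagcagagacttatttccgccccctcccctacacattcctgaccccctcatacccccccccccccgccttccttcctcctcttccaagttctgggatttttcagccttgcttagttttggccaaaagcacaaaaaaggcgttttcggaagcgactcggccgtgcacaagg
Tsc22d3, chrX:140600473-140600772, minus strand: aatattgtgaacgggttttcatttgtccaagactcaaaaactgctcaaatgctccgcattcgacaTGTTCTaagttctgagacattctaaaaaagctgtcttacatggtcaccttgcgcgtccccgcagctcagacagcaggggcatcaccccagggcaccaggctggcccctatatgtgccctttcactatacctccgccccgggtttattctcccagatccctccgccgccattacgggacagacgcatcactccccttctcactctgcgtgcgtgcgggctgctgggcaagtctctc
Fkbp5, chr17:28486100-28486399, minus strand: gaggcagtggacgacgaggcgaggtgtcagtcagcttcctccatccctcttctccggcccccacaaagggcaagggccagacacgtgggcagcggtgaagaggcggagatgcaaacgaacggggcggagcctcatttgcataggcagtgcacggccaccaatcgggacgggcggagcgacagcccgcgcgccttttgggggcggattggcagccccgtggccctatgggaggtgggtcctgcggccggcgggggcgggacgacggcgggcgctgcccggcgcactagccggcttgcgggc

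After 48 h without food, 5 of the 7 genes rose in NT+/+ crypts and the same 5 rose in NT-/- crypts: Hsd11b2, Fkbp5, Tsc22d3, Sgk1 and Zbtb16. In the quasi-likelihood fit of edgeR, with p-values adjusted by Benjamini-Hochberg over all 17875 genes, 21.6% of genes were called in NT+/+ mice (11.2% as higher) and 25.2% in NT-/- mice (12.5% as higher). Over both genotypes together, 6 of the 7 were called, 5 as higher and Klf9 as lower, while 39.4% of all genes were called (19.2% higher and 20.2% lower). The median log2 fold change of the 7 genes was 0.80 in NT+/+, 0.62 in NT-/- and 0.71 over both, beside medians of -0.01, -0.02 and -0.02 over all genes. The fasted and fed values of those 5 genes did not overlap within either genotype, which held for 14.6% of all genes in NT+/+ and 21.3% in NT-/- mice. For Fkbp5, Sgk1 and Zbtb16 all 10 fasted mice were above all 9 fed mice, and 7.5% of all genes kept these mice apart in either direction. The receptor gene itself did not pass the test in any comparison.

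**Figure D1:**
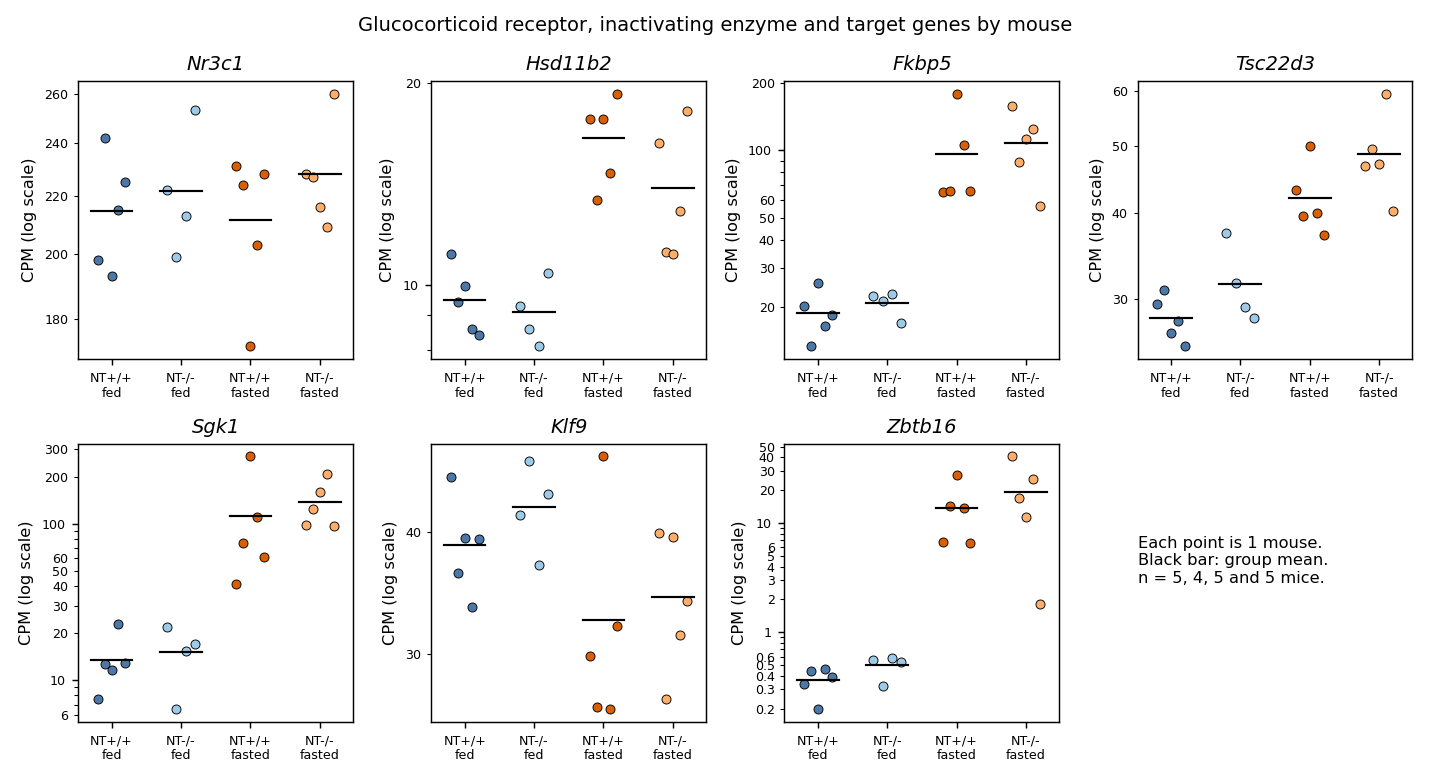
Level of each of the 7 genes in CPM (log axis, its range differing between panels) for each mouse of the 4 groups; points are mice and black bars are group means. Fkbp5, Sgk1 and Zbtb16 were higher in all 10 fasted than in all 9 fed mice, whereas the values of Nr3c1 overlapped.

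Nr3c1 (ENSMUSG00000024431, chr18:39410545-39519421, minus strand, GRCm38) encodes the receptor. In replicates 1 to 5 of fed NT+/+ mice it stood at 198, 242, 193, 215 and 225 CPM, and in the 4 fed NT-/- mice at 222, 199, 213 and 253 CPM. In fasted mice it stood at 231, 224, 172, 203 and 228 CPM in NT+/+ and at 228, 227, 216, 209 and 260 CPM in NT-/-. The 4 groups overlapped, and their means lay between 212 and 228 CPM with a coefficient of variation between 8.6% and 11.6%. The log2 fold change with fasting was -0.02 ± 0.09 (SE; adjusted p = 0.902) in NT+/+ and 0.04 ± 0.10 (adjusted p = 0.806) in NT-/- mice. Receptor mRNA therefore differed between fed and fasted mice by less than the spread within a group.

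Hsd11b2 (ENSMUSG00000031891, chr8:105518755-105523988, plus strand) encodes the dehydrogenase that turns corticosterone into an inactive steroid, and is known for shielding the mineralocorticoid receptor in aldosterone target cells. Fed mice had 11.1, 9.43, 9.97, 8.58 and 8.41 CPM in NT+/+ and 9.29, 8.6, 8.09 and 10.4 CPM in NT-/-. Fasted mice had 17.7, 13.4, 17.7, 14.7 and 19.3 CPM in NT+/+ and 16.3, 11.2, 11.1, 12.9 and 18.2 CPM in NT-/-. Within each genotype, every fasted mouse exceeded every fed mouse. The rise was 1.74-fold in NT+/+ (log2 0.80 ± 0.14, adjusted p = 0.000478) and 1.54-fold in NT-/- (log2 0.62 ± 0.15, adjusted p = 0.00506). Pooled over genotypes, 9 of the 10 fasted mice exceeded all 9 fed mice.

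Fkbp5 (ENSMUSG00000024222, chr17:28399094-28517527, minus strand) encodes a co-chaperone of HSP90 that lowers the receptor's affinity for hormone and is itself switched on by the receptor. Its level in fed mice was 20.2, 13.4, 25.8, 16.6 and 18.4 CPM in NT+/+ and 22.4, 21.4, 23 and 17 CPM in NT-/-. In fasted mice it was 65.1, 66.3, 179, 106 and 66.1 CPM in NT+/+ and 157, 88.7, 113, 125 and 56.4 CPM in NT-/-. All fasted mice were above all fed mice, and the fasted mice also spread more widely, with a coefficient of variation of 51.1% and 35% against 24.3% and 12.9% when fed. Fasting raised it 5.14-fold in NT+/+ (log2 2.36 ± 0.29, adjusted p = 1.16e-05) and 5.15-fold in NT-/- (log2 2.36 ± 0.31, adjusted p = 2.4e-05). Of genes annotated within its span, none reached more than 3.19% of its counts.

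Tsc22d3 (ENSMUSG00000031431, chrX:140539528-140600659, minus strand) encodes GILZ, a leucine zipper protein known for carrying anti-inflammatory effects of glucocorticoids. Fed mice had 29.5, 30.9, 26.8, 27.9 and 25.6 CPM in NT+/+ and 37.4, 31.6, 29.2 and 28.1 CPM in NT-/-. Fasted mice had 43.2, 39.6, 49.9, 39.9 and 37.1 CPM in NT+/+ and 46.7, 49.4, 47.1, 59.5 and 40.2 CPM in NT-/-. The groups were apart within each genotype, although the fed NT-/- mouse of replicate 1 (37.4 CPM) exceeded the lowest fasted NT+/+ mouse (37.1 CPM). The rise was 1.49-fold in NT+/+ (log2 0.58 ± 0.10, adjusted p = 0.000563) and 1.53-fold in NT-/- (log2 0.61 ± 0.11, adjusted p = 0.000454). It was the smallest of the 5 rises over both genotypes, at a log2 fold change of 0.59.

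Sgk1 (ENSMUSG00000019970, chr10:21882184-21999903, plus strand), whose window with the full element is printed above, encodes a kinase that raises sodium transport in epithelia. In fed mice it stood at 7.58, 12.7, 11.6, 23 and 12.9 CPM in NT+/+ and at 21.9, 6.55, 15.4 and 17.1 CPM in NT-/-. In fasted mice it stood at 41, 75.5, 269, 110 and 61.6 CPM in NT+/+ and at 98.5, 125, 160, 207 and 97.2 CPM in NT-/-. The lowest fasted mouse (41 CPM) was above the highest fed mouse (23 CPM). The rise was 8.22-fold in NT+/+ (log2 3.04 ± 0.45, adjusted p = 8.07e-05) and 8.93-fold in NT-/- (log2 3.16 ± 0.49, adjusted p = 0.000104). The size in NT+/+ leaned on replicate 3 of the fasted mice, without which it was 5.31-fold (log2 2.41, adjusted p = 9.9e-05).

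Klf9 (ENSMUSG00000033863, chr19:23141226-23168134, plus strand) encodes a Krüppel-like transcription factor that glucocorticoids raise in many cell types. Fed mice had 45.5, 36.3, 39.4, 33.5 and 39.3 CPM in NT+/+ and 41.6, 47.2, 37 and 43.7 CPM in NT-/-. Fasted mice had 29.9, 26.5, 47.7, 26.4 and 32.1 CPM in NT+/+ and 39.9, 27, 39.5, 31.4 and 34 CPM in NT-/-. In NT+/+ mice 4 of 5 fasted values were below every fed value and replicate 3 was above them all, and in NT-/- mice 3 of 5 were below. The log2 fold change was -0.25 ± 0.14 in NT+/+ (adjusted p = 0.227) and -0.30 ± 0.15 in NT-/- (adjusted p = 0.164), so neither genotype passed the test alone. Over both genotypes Klf9 fell by 0.27 on the log2 scale (SE 0.10, adjusted p = 0.0425). That call lay near the threshold. It was lost, with an adjusted p between 0.0577 and 0.0927, in 13 of 19 fits that left out 1 mouse. The log2 fold change in those 13 fits stayed between -0.28 and -0.24. The mice left out there were fed NT+/+ replicates 1, 3 and 5 and fed NT-/- replicates 1, 2 and 4. The others were fasted NT+/+ replicates 1, 2, 4 and 5 and fasted NT-/- replicates 2, 4 and 5. Without replicate 3 of the fasted NT+/+ mice, Klf9 was called lower in NT+/+ (log2 fold change -0.43, adjusted p = 0.0122).

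Zbtb16 (ENSMUSG00000066687, chr9:48654297-48836222, minus strand) encodes the zinc finger repressor PLZF, a receptor target in many tissues that is also a defining factor of innate-like lymphocytes. In fed mice it was barely present, at 0.336, 0.445, 0.198, 0.457 and 0.387 CPM in NT+/+ and 0.56, 0.325, 0.578 and 0.533 CPM in NT-/-, which rests on 37 and 47 counts in the whole of each group. Fasted mice had 6.66, 14.5, 27.5, 13.8 and 6.61 CPM in NT+/+ and 40.9, 17.1, 11.4, 25.4 and 1.8 CPM in NT-/-, from 1223 and 1406 counts. Every fasted mouse exceeded every fed mouse, yet the fasted NT-/- mice themselves ran from 1.8 to 40.9 CPM. The rise was 36.6-fold in NT+/+ (log2 5.19 ± 0.67, adjusted p = 2.11e-05) and 37.6-fold in NT-/- (log2 5.23 ± 0.70, adjusted p = 2.86e-05). Of all 17875 genes it ranked 9 by log2 fold change over both genotypes, with Sgk1 at 35 and Fkbp5 at 73. Beside it, the innate lymphocyte markers Il7r (log2 fold change 0.89), Gata3 (0.66) and Klrb1c (1.41) also rose over both genotypes. Their group means lay between 0.153 and 0.859 CPM in fed and between 0.42 and 1.87 CPM in fasted mice. By the same edgeR test their adjusted p was 0.0283, 0.0496 and 0.0034. Within single genotypes, only Klrb1c in NT-/- mice was called (adjusted p = 0.0362). The part of these cells in the Zbtb16 result was not tested.

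**Figure D2:**
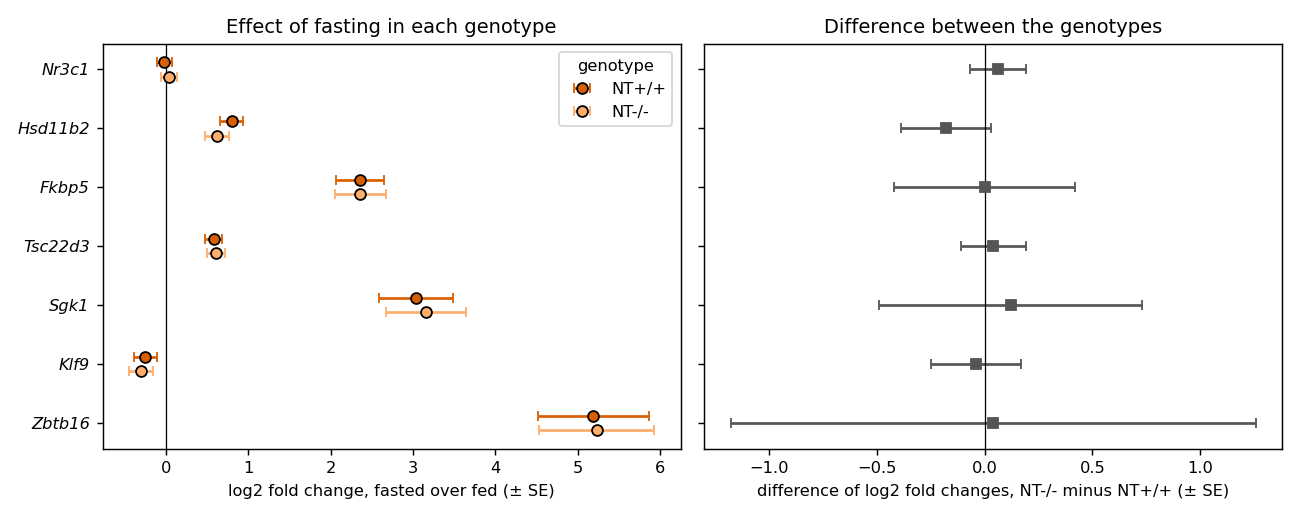
Left, log2 fold change of fasted over fed mice for each gene in NT+/+ (5 against 5 mice) and NT-/- (5 against 4 mice), with bars of 1 SE. Right, the difference of these effects, NT-/- minus NT+/+, with bars of 1 SE. Zbtb16, Sgk1 and Fkbp5 show the largest effects of the 7 in both genotypes, and the differences lie between -0.18 and 0.12.

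Loss of neurotensin was next compared at equal diet. In fed mice edgeR called 0 of the 7 genes between NT-/- and NT+/+ crypts (adjusted p under 0.05), beside 0.00559% of all genes. At an unadjusted p under 0.05 there were 0 of the 7 and 1.67% of all genes, and DESeq2 called 0 of the 7. In fasted mice edgeR again called 0 of the 7 and 0.00559% of all genes, with 0 of the 7 and 9.14% of all genes at an unadjusted p under 0.05. There DESeq2 called 0 of the 6 genes to which it gave an adjusted p (it gave none for Zbtb16) and 101 of all genes. The log2 differences, NT-/- minus NT+/+, ran from -0.06 (Hsd11b2, SE 0.15) to 0.44 (Zbtb16, SE 0.88) in fed mice and from -0.24 (Hsd11b2, SE 0.14) to 0.48 (Zbtb16, SE 0.49) in fasted mice. The smallest unadjusted p among the 7 was that of Tsc22d3 in fasted mice, at 0.0572 (log2 difference 0.21 ± 0.10, adjusted p = 0.568). The response to fasting itself was compared by the interaction of diet and genotype, for which 0 of the 7 genes and 0% of all genes were called (0 of the 7 and 2.71% of all genes at an unadjusted p under 0.05, and 0 of the 7 by DESeq2). These differences ran from -0.18 ± 0.21 for Hsd11b2 to 0.12 ± 0.61 for Sgk1. The SE values were worked back from the F test, so they are approximate. At 0.42 for Fkbp5, 0.61 for Sgk1 and 1.22 for Zbtb16 on the log2 scale, sizeable differences may have gone undetected. For Nr3c1 (0.06 ± 0.13) and Tsc22d3 (0.04 ± 0.15) the SE was smaller.

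To compare levels between genes, the authors' TPM values, which account for transcript length, were used. In fed NT+/+ mice the receptor gene led the 7, at 55 ± 8.69 TPM (SD, n = 5). It was followed by Tsc22d3 at 17 ± 1.94 TPM. Klf9 (10.7 ± 0.591), Sgk1 (10.2 ± 4.6) and Fkbp5 (8.33 ± 1.88 TPM) came next and were not apart beyond their spread. Hsd11b2, at 6.08 ± 0.33 TPM (5.8 to 6.6), lay within the range of Sgk1 (5.41 to 17.5) and overlapped that of Fkbp5 (6.2 to 11.4), and Zbtb16 was lowest at 0.13 ± 0.0557 TPM. The order was another in fasted NT+/+ mice. Sgk1 then averaged 88.2 ± 79 TPM, a mean its spread does not separate from Nr3c1 (55 ± 7.81) or Fkbp5 (42.2 ± 22.2). Tsc22d3 stood at 24.4 ± 2.97 TPM, Hsd11b2 at 10.1 ± 0.673 and Klf9 at 8.4 ± 2.29, and Zbtb16 reached 3.72 ± 2.46 TPM. Fasted NT-/- mice showed means of 102 ± 35.6 TPM for Sgk1, 58.3 ± 7.66 for Nr3c1 and 45.6 ± 14.9 for Fkbp5.

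**Figure D3:**
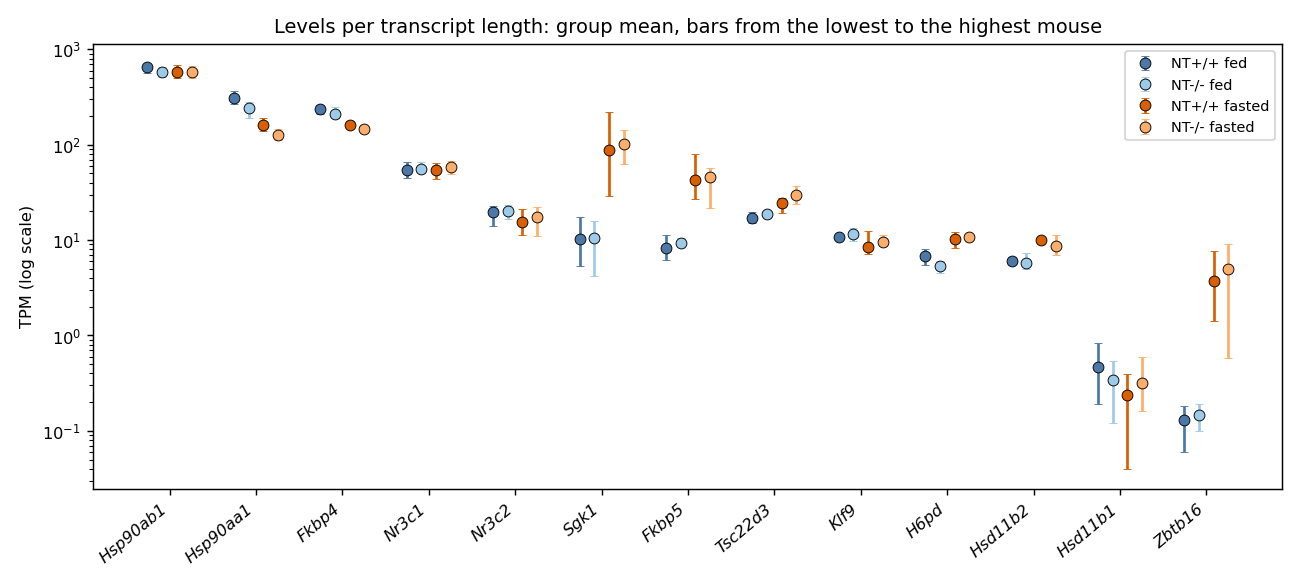
Level per transcript length in TPM (log axis) of the 7 genes and 6 partner genes in the 4 groups; points are group means and bars run from the lowest to the highest mouse. Sgk1, Fkbp5 and Zbtb16 move up with fasting, Hsp90aa1 and Fkbp4 move down, and Nr3c1 stays near 55 TPM.

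The fasted mice differed most among themselves in the same 3 genes that rose most. These genes also had the largest coefficients of variation of the 7 in fed NT+/+ mice (42.2% for Sgk1, 28.8% for Zbtb16 and 24.3% for Fkbp5). In fed NT-/- mice Sgk1 (42.1%) and Zbtb16 (23.6%) led, while Fkbp5 had 12.9%. Replicate 3 of the fasted NT+/+ mice was the highest of its group for 5 of the 7 genes (Fkbp5, Tsc22d3, Sgk1, Klf9 and Zbtb16) and the lowest for Nr3c1. Replicate 5 of the fasted NT-/- mice was the lowest of its group for Fkbp5, Tsc22d3, Sgk1 and Zbtb16 and the highest for Nr3c1 and Hsd11b2. These mice were singled out after their values were seen. Without the former, the NT+/+ fold changes were 4.04 for Fkbp5 and 27.4 for Zbtb16, and without the latter, the NT-/- fold changes were 5.77 for Fkbp5 and 46.4 for Zbtb16. After the group means were removed, Nr3c1 and Fkbp5 ran in opposite directions over the 19 mice, with Pearson's r of -0.85 and Spearman's rho of -0.83. Without the 2 mice farthest from the median of Nr3c1, r was -0.80 over 17 mice, and leaving out single mice gave -0.91 to -0.79. Nr3c1's r with the other 5 genes ran from -0.50 (Tsc22d3) to 0.23 (Hsd11b2). The pair is 1 of 21 and was singled out after its values were seen, both values of a point come from 1 library, and no test was made.

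**Figure D4:**
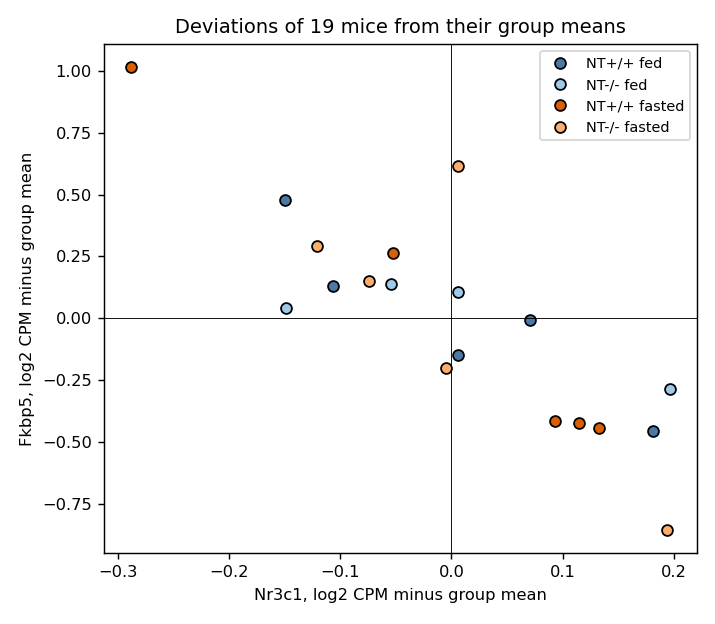
Fkbp5 against Nr3c1 in the 19 mice, each as log2 CPM minus the mean of the mouse's group; colours mark the 4 groups. The points fall from upper left to lower right (r = -0.85), with replicate 3 of the fasted NT+/+ mice at the upper left.

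The genes whose log2 CPM followed each of the 7 most closely over the 19 mice were taken from 13247 tested genes with a mean of at least 1 log2 CPM, 3 for each. Both the step from fed to fasted mice and the spread within groups enter these values. Fkbp5 and Zbtb16 had each other as closest match (r = 0.958), and the r of their deviations from group means was 0.68. Fkbp5 was next followed by Hif3a (0.955), a subunit of the hypoxia-inducible factors, and Fndc10 (0.946). Zbtb16 was next followed by Pex11a (0.950), which acts in peroxisome division, and Eps8l3 (0.940). The closest to Sgk1 were Tmem37 (0.972), Creb3l3 (0.971), a transcription factor of lipid metabolism, and Rab4a (0.967), a GTPase of endosome recycling. Tsc22d3 was matched by Retreg1 (0.921), Gskip (0.918) and Agpat3 (0.915), and Hsd11b2 by Sdsl (0.942), Ppdpf (0.926) and Atf5 (0.926). For the 2 genes with the smallest fasting effects r over all mice was lower. Klf9 was matched by Rasal2 (0.891), Grasp (0.870) and 0610012G03Rik (0.866), and Nr3c1 by Atxn3 (0.860), Trim2 (0.856) and Gnai3 (0.850). That order did not hold within groups. The r of deviations from group means was 0.82 to 0.87 for the matches of Klf9 and 0.84 to 0.87 for those of Nr3c1. For the matches of the other genes it ran from 0.47 (Tsc22d3 with Agpat3) to 0.83 (Sgk1 with Tmem37).

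Genes around the receptor were then described in lists, over both genotypes together and by the same test. In it, 39.4% of all genes were called (19.2% higher and 20.2% lower) at a median log2 fold change of -0.02. The lists were chosen with earlier results of these data known, so these shares give a scale and are not a test of a list. Of 17 partners of the receptor (chaperones, coactivators, corepressors and the mineralocorticoid receptor gene Nr3c2), all were tested, 9 fell (20.2% of all genes did) and 4 rose (19.2% of all genes), with a median log2 fold change of -0.21. The falls were led by chaperones that load and hold the receptor. Hsp90aa1, the inducible HSP90, had group means of 500 and 384 CPM in fed NT+/+ and NT-/- mice and of 237 and 209 CPM in fasted ones (log2 -0.98 ± 0.09, adjusted p = 7.61e-08). Stip1, which passes clients from HSP70 to HSP90, fell by 0.77 and Fkbp4, the co-chaperone that takes the place of Fkbp5 when the receptor binds hormone, fell by 0.52 on the log2 scale. Ptges3 (-0.44) and Ppid (-0.43), other HSP90 partners, fell as well, whereas the constitutive Hsp90ab1 did not pass the test (-0.04, adjusted p = 0.753); these 3 were named after their values were seen. The other falls were the coactivators Med1 (-0.28), Smarca4 (-0.26) and Ncoa3 (-0.21) and the receptor gene Nr3c2 (-0.22, adjusted p = 0.0408), also named after their values were seen. With upper quartile scaling Nr3c2 missed the threshold (-0.21, adjusted p = 0.0625), as it did in some fits that left out 1 mouse. Those that rose did so slightly, led by the corepressors Ncor1 (0.26) and Nrip1 (0.21) and the coactivator Crebbp (0.17). Without a filter on low counts Crebbp missed the threshold (0.16, adjusted p = 0.0531).

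Since Fkbp5 rose while Fkbp4 fell, their TPM ratio was taken in each mouse, a choice made after seeing both. Fkbp5 over Fkbp4 was 0.0351 ± 0.00587 in fed NT+/+ mice (SD, n = 5) and 0.0454 ± 0.00839 in fed NT-/- mice (n = 4). It was 0.26 ± 0.133 in fasted NT+/+ and 0.313 ± 0.113 in fasted NT-/- mice (n = 5 each). The highest fed mouse had 0.0558 and the lowest fasted mouse 0.134, so the ranges did not overlap. Fkbp4 nonetheless stayed the more abundant of the pair in every mouse.

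Of 16 genes of steroid synthesis, activation and export, 10 were tested, 4 rose and 1 fell, with a median log2 fold change of 0.11. That is 5 of 10 called beside 39.4% of all genes, a share near the background. Abcb1a, a pump that exports steroids, rose from group means of 94.6 and 110 CPM in fed to 210 and 242 CPM in fasted NT+/+ and NT-/- mice (1.15 ± 0.12, adjusted p = 4.15e-07). Hsd3b2 rose by 0.97 from a low level, with group means of 0.835 to 1.06 CPM fed and 1.65 to 2.06 CPM fasted. H6pd, which supplies NADPH for the reactivation of corticosterone, rose by 0.83 and the electron carrier Fdx1 by 0.42. Cyp17a1, an enzyme of androgen synthesis, fell by 0.99 at group means of at most 0.824 CPM. The reactivating enzyme gene Hsd11b1 itself was at 0.0579 to 0.789 CPM across all mice and did not pass the test (-0.41 ± 0.36, adjusted p = 0.401). Cyp11a1 and Cyp11b1, the enzymes that open and close corticosterone synthesis, held at most 6 counts in any mouse and were not tested. The last 3 were named after their values were seen.

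Of 37 other genes that glucocorticoids are known to induce in various tissues, 32 were tested, 23 rose and 2 fell, with a median log2 fold change of 0.49, beside 19.2% higher and 20.2% lower among all genes. The metallothionein gene Mt2 rose by 6.01 ± 0.29 on the log2 scale, from group means of 2.25 and 2.59 CPM in fed to 138 and 176 CPM in fasted NT+/+ and NT-/- mice (adjusted p = 1.69e-11). Pdk4, which holds back glucose oxidation, rose by 5.67 ± 0.36 from 1.76 and 0.981 to 56 and 84.2 CPM (adjusted p = 5.44e-10). Pck1, the gluconeogenic carboxykinase, rose by 3.94 ± 0.51 (adjusted p = 6.05e-06), and its level in fasted NT+/+ mice reached 972 CPM in replicate 3 with a group median of 85.7 CPM. These 3 genes also respond to other signals of food deprivation. The circadian gene Per1 (1.37 ± 0.22) and the transcription factor gene Klf15 (1.33 ± 0.18), both direct receptor targets elsewhere, rose too, whereas Dusp1, an induced phosphatase, did not pass the test (0.11 ± 0.26, adjusted p = 0.776). In fasted NT+/+ mice, replicate 3 had 68.7 CPM of Per1 against 19.1 to 25.9 CPM in the other mice. For Klf15 it had 17 CPM against 6.55 to 9.25 CPM. In all, 7 of the 32 genes were not called, among them Nfkbia (0.23), Cebpd (0.20) and Bcl6 (0.13). Per1, Klf15, Dusp1, Nfkbia, Cebpd and Bcl6 were named after their values were seen. The genes that fell were Lpin1, a phosphatidate phosphatase (-1.19 ± 0.17), and Sesn1, a brake on mTORC1 (-0.37 ± 0.07), and the smallest rise was that of Foxo1 (0.18 ± 0.05).

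**Figure D5:**
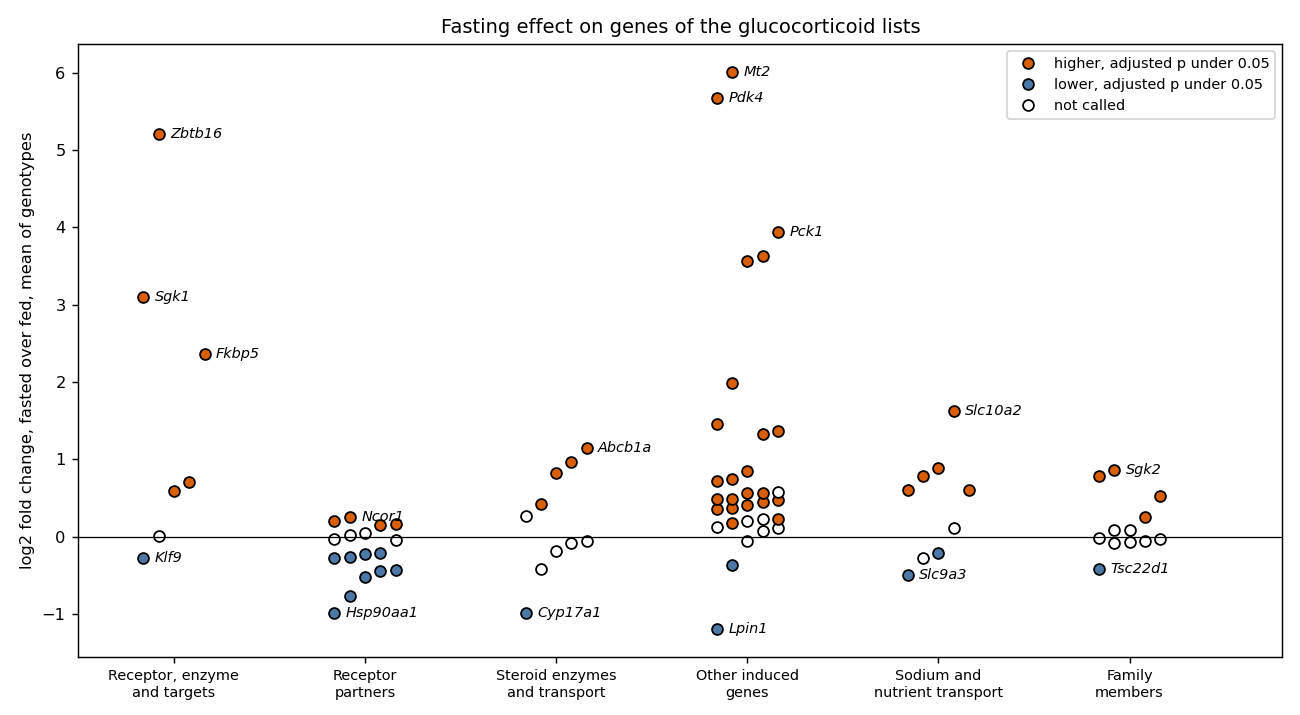
Log2 fold change of fasted over fed mice, averaged over both genotypes, for the 7 genes and the tested genes of the 5 lists; points are genes, filled where the adjusted p was under 0.05, with a few names. The list of other induced genes holds 23 of 32 filled points above 0, and the receptor partners hold 9 of 17 below 0.

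Sodium and nutrient transport, on which Sgk1 acts, was described with 11 genes, of which 9 were tested, 5 rose and 2 fell (median 0.60), beside 19.2% higher, 20.2% lower and a median of -0.02 among all genes. Those that rose were led by the bile acid transporter gene Slc10a2 (1.63 ± 0.36, from group means of 1.01 and 1.28 to 4.04 and 3.11 CPM), the chloride exchanger gene Slc26a3 (0.89 ± 0.09) and Slc9a3r1 (0.78 ± 0.13), a scaffold of the sodium-proton exchanger. The glucose carrier gene Slc5a1 rose by 0.60 ± 0.13. The exchanger gene Slc9a3 itself fell by 0.49 ± 0.15. Nedd4l, a ubiquitin ligase that Sgk1 restrains, fell as well (-0.21 ± 0.08, adjusted p = 0.0392). Of the epithelial sodium channel genes, Scnn1a did not pass the test (-0.28 ± 0.14, adjusted p = 0.117). Scnn1b, with at most 6 counts in any mouse, and Scnn1g, with 0 counts, were not tested. The channel genes were named after their values were seen. The Nedd4l call was lost, with an adjusted p between 0.0537 and 0.0782, in 12 of 19 fits that left out 1 mouse (fed NT+/+ replicates 2 to 5, fed NT-/- replicates 3 and 4, fasted NT+/+ replicates 1, 2 and 5 and fasted NT-/- replicates 1, 2 and 4). The summed villus markers moved the same way as the genes of this list that rose, and their part was not tested.

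Of 12 relatives of the 7 genes, all tested, 4 rose and 1 fell (median 0.04), and these 5 of 12 are near the 39.4% called among all genes. Sgk2 (0.86 ± 0.23, group means of 2.68 and 3 CPM fed and 4.42 and 5.97 CPM fasted) and Sgk3 (0.78 ± 0.11) rose less than Sgk1. Klf4, a factor of epithelial differentiation, rose by 0.53 ± 0.10 and Tsc22d4 by 0.25 ± 0.07, while Tsc22d1 fell by 0.41 ± 0.12. In the genotype comparisons at either diet and in the interaction, 0 genes of these 5 lists were called in edgeR's quasi-likelihood test or by DESeq2. At an unadjusted p under 0.05 between fed genotypes stood 1 of 17 receptor partners, 2 of 10 steroid genes, 1 of 32 induced genes and 0 of the other two lists, beside 1.67% of all genes. Between fasted genotypes there were 1 of 17 partners, 0 of 10 steroid genes, 3 of 32 induced genes, 3 of 9 transport genes and 0 of 12 relatives, beside 9.14% of all genes. In the interaction there were 0 in each list, beside 2.71% of all genes.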

How the data were processed

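RNA of small-intestinal crypts from 19 mice was sequenced by the authors as rRNA-depleted libraries (KAPA RNA Hyper with RiboErase, single-end reads). Per the labels, reads were trimmed with Trimmomatic 0.39 and quantified with RSEM on GRCm38. The RSEM version and strand setting were not given in the sources used here, so antisense overlaps could not be told apart. The deposited expected counts (per gene, not normalized) were rounded to whole numbers, and the deposited TPM values, scaled by the authors for transcript length and library size, were used only to compare levels between genes.

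Counts were normalized by TMM and fitted with edgeR 4.0.16 (quasi-likelihood) in R 4.3.3 over all 19 mice and 4 groups, after filterByExpr, which kept 17875 of 55487 genes. Contrasts were fasted against fed in each genotype and over both, NT-/- against NT+/+ at each diet, and their interaction. Calls used a Benjamini-Hochberg adjusted p under 0.05 over all tested genes. The SE of a log2 fold change is its size over the square root of the contrast's F statistic, not a separate estimate. The fit had 15 residual degrees of freedom and a biological coefficient of variation of 18.9%. CPM values were scaled by TMM as well. Depth ran from 9059418 to 35068669 counts per mouse. The test was checked on simulated counts with the same dispersion for every gene and changes with fasting only. That check does not cover genes with a wider spread or differences between genotypes. No 2 files held identical values. Groups came from titles, and each library was taken as 1 mouse.

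The 7 genes, 5 gene lists and marker lists were chosen with earlier results of these data known. One marker of the innate lymphocyte list, and that list's summed level, are not reported here. Beside the 7 genes, the rule named from each list the 3 highest and 3 lowest called log2 fold changes over both genotypes, and for each of the 7 the 3 genes with the highest Pearson correlation. Gene coordinates are those of GENCODE for GRCm38, and start windows are from RefSeq. Alternatives were 2 other filters, upper quartile scaling, DESeq2 1.42.0, edgeR's likelihood ratio test, 2 replicate blocks, sex as a covariate, the disagreeing genotype label, only the groups compared, and leaving out each mouse. One sex label was missing, and the fit with sex left that mouse out.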

Additional observations from a re-analysis of the deposited data

Results flagged for a closer look

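Klf9 stood out in 1 of 28 groups of a gene tested for an outlying mouse. In fasted NT+/+ mice, replicate 3 had 47.7 CPM while the other 4 mice lay between 26.4 and 32.1 CPM, a gap that took 0.731 of the group's whole range against Dixon's critical value of 0.71 for 5 samples. By chance about 1 in 20 groups would be picked out this way. The same mouse was the highest of its group for Fkbp5, Tsc22d3, Sgk1 and Zbtb16.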

How the results depend on the processing

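Over 10 alternative settings and 19 fits that each left out 1 mouse, all 427 values of Hsd11b2, Fkbp5, Tsc22d3, Sgk1 and Zbtb16 in the fasting comparisons kept their direction and their call. Zbtb16 was not tested when at least 10 counts were required in every mouse, which left 6 of the 7 genes. Leaving out 1 mouse kept the number of the 7 genes called at 5 to 6 in NT+/+, 5 in NT-/- and 5 to 6 over both genotypes.

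No pairing was given by the labels. Mice with the same number in their titles had deviations from group means that correlated at 0.184 on average over 27 pairs (-0.127 to 0.499). By the number in the file names the mean was 0.227 (0.0672 to 0.499, 24 of 27 over 0.1). Over the 108 pairs with differing numbers the means were -0.0457 by title and -0.0565 by file name. With the file-name number as a replicate block, 6 of the 7 genes were called in NT-/- mice, Klf9 being added (-0.38, adjusted p = 0.0198), and with the title number as block 5 were. Among all 17875 genes the file-name block called 5484 with fasting in NT+/+, 5672 in NT-/- and 8252 over both. Without a block these counts were 3862, 4499 and 7039, and the shares of all genes given above are those without a block. Of the steroid genes called over both genotypes, 3 remained in number under the minimum of 10 counts in every mouse against 5, since fewer genes were tested.

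The sign turned only in values far from a call (59 values, adjusted p of at least 0.766). The Nr3c1 effect over both genotypes was -0.00 without a filter, -0.01 with the title block, -0.02 with sex and -0.00 by the disagreeing genotype label, and in NT-/- mice -0.01 with sex. The interaction for Fkbp5 was -0.02 without a filter, -0.00 with 10 counts in every mouse, -0.01 with upper quartile scaling, -0.09 with the file-name block and -0.21 by the genotype label. By that label it was also -0.17 for Sgk1, -0.06 for Tsc22d3 and -0.31 for Zbtb16 (-0.18 with the file-name block), and Fkbp5 differed by -0.05 between fasted genotypes. The cause was not tested. Without single mice, the Nr3c1 effect ran from -0.06 to 0.05 in NT+/+, -0.01 to 0.11 in NT-/- and -0.02 to 0.05 over both, and its genotype difference from -0.02 to 0.10 when fed. The fed genotype difference of Hsd11b2 ran from -0.13 to 0.00 and that of Sgk1 from -0.06 to 0.46. Between fasted genotypes Fkbp5 ran from -0.01 to 0.51 and Zbtb16 from -0.01 to 0.89. The interaction ran from -0.17 to 0.35 for Fkbp5, -0.16 to 0.75 for Sgk1, -0.45 to 0.46 for Zbtb16, -0.11 to 0.14 for Klf9, -0.04 to 0.13 for Tsc22d3 and -0.00 to 0.13 for Nr3c1.

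Over all genes, 1 was called between fasted genotypes by the quasi-likelihood test, 101 by DESeq2 and 41 by the likelihood ratio test. DESeq2 gave no adjusted p for Zbtb16 there. Among called genes of the lists, 53 of 1537 values missed the threshold under an alternative and 0 turned. The 3 to 19 counts of Zbtb16 per fed mouse limit the precision of its fold change.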
